A study of Mus musculus with 6 samples.

Results

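Mature dendritic nuclei of mouse white adipose tissue (WAT) were picked out by single-nucleus RNA sequencing (snRNA-seq), which counts the RNA of each nucleus as UMIs (unique molecular identifiers, 1 per captured molecule of RNA). A nucleus was counted as mature dendritic when it held at least 1 UMI each of Fscn1 and Cacnb3 and at least 4 UMIs in all of Fscn1, Cacnb3, Ccr7, Relb, Ccl22 and Il4i1. It also had to hold at most 2 UMIs of the lymphocyte genes Skap1, Themis, Bank1 and Pax5, and at most 1 UMI of Plin1, Epcam, Pdgfra and Ptprb, which mark adipocytes, epithelial cells, fibro-adipogenic progenitors and endothelial cells. In all, 815 of the 27074 nuclei kept (3.01%) met this rule. Measured values chose these nuclei, so every gene level given here against other nuclei is a description without a test.

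The 6 libraries came from female C57BL/6J mice with no treatment named. Each of 3 groups had 2 libraries: young subcutaneous (inguinal) fat (SAT, 2 months), old SAT (24 months) and old visceral (gonadal) fat (VAT, 24 months). The labels state 24 months for the older age and the design text of the series states 26 months, while young VAT was not analysed here. The study's text gives 2 mice per age group, so the SAT and VAT libraries at 24 months may share mice. The labels call the cells of each library adipocytes, whereas 9221 of the nuclei kept, the mature dendritic ones included, either met the rule or held at least 1 UMI of Ptprc (CD45, carried by blood cells) with at most 1 UMI of the 4 other-cell genes. These are called Ptprc nuclei below.

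Dendritic cells take up antigen in tissues and show it to T cells. On maturation they stop taking up antigen, rebuild their actin skeleton with fascin (Fscn1), carry the chemokine receptor CCR7 that guides them through lymph vessels to the lymph node, and raise costimulatory proteins, largely under the NF-kB factor RelB. Mature dendritic cells also make proteins that restrain T cells, such as PD-L1 (Cd274) and the amino acid oxidase IL4I1, and they draw T cells towards them with the chemokines CCL22 and CCL17.

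Total depth ranged from 8061862 to 16226690 UMIs per library, and mature dendritic nuclei were deeper than the average nucleus of SAT. Their median depth was 3370 and 2715 UMIs in SAT at 2 months and 2469 and 2223 in SAT at 24 months, against 1380 to 1802 over all nuclei of these libraries. The 25 such nuclei of VAT replicate 2 had a median of 1485 UMIs. Their median mitochondrial share was 1.99% and 2.19% at 2 months and 3.31% and 3.48% at 24 months in SAT. Deeper nuclei meet a rule on UMIs more easily, and differences with every nucleus thinned to 1000 UMIs are given beside the shares below.

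The 6 marker genes chosen for the rule were spread unevenly over the nuclei. Their summed count had a median of 23 UMIs and ran from 4 to 178, so most nuclei lay far from the threshold. At the threshold, 9 nuclei held exactly 4 UMIs and 8 held 5, and 11 nuclei that met every other condition held 3 and 8 held 2. A further 42 nuclei were lost to the limit on lymphocyte genes and 33 to the limit on other-cell genes. Relb was seen in 749 of the 815 nuclei (91.9%), Il4i1 in 606 (74.4%), Ccr7 in 602 (73.9%) and Ccl22 in 381 (46.7%). For comparison, Ccl22 was seen in 1.05% of T nuclei, whose median depths per SAT library of 1308 to 1586.5 UMIs were lower, and after thinning to 1000 UMIs the shares were 29.1% and 0.790%. One nucleus held 111 UMIs of Ccl22 while the median nucleus held 0.

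Levels are given below in CPM, the UMI count of a gene over all mature dendritic nuclei of a library, divided by all UMIs of those nuclei and scaled to the same total in every library. They are listed in the order SAT at 2 months (replicates 1 and 2) and SAT at 24 months (replicates 1 and 2). Other classes of nuclei were drawn by marker UMIs for comparison, namely conventional dendritic (286 in SAT), macrophage (587), T (3423) and B nuclei (1110), and their levels are means over the 4 SAT libraries. The conventional dendritic class was drawn by all genes of the conventional dendritic list below, Flt3, Zbtb46, Xcr1 and Clec9a among them. Macrophage, T and B nuclei were drawn by most genes of their own lists. The height of each class in these genes is therefore a consequence of how it was drawn. Fscn1 stood at 2330, 2684, 2228 and 3742 CPM in mature dendritic nuclei and at 112 CPM in conventional dendritic and 30.1 CPM in macrophage nuclei. Ccr7 stood at 773, 1248, 752 and 1010 CPM, against 228 CPM in conventional dendritic and 136 CPM in T nuclei. Il4i1 was at 1235, 984, 1019 and 844 CPM against 203 CPM in conventional dendritic nuclei. These genes were part of the rule, and their height is a consequence of it.

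The identity given by the label was described with markers that the rule did not use, though many of them drew the comparison classes. Flt3, the receptor for the growth factor of dendritic cells, was at 855, 910, 824 and 724 CPM, which lies below the 1226 CPM of conventional dendritic nuclei and far above the 11.6 CPM of macrophage nuclei. Zbtb46, a transcription factor of the conventional dendritic lineage, was at 361, 360, 478 and 302 CPM and Batf3 at 443, 428, 393 and 365 CPM. Both were close to their conventional dendritic means of 451 and 365 CPM, and Zbtb46 was at 35.4 CPM in macrophage nuclei. A list of 12 macrophage genes summed to 91.2, 118, 64.3 and 106 CPM in mature dendritic nuclei, against 9545 to 13862 CPM in macrophage nuclei. The 12 genes of inflammatory macrophages summed to 122, 130, 281 and 65.4 CPM, below the lowest macrophage library at 567 CPM, and the 9 genes of alternatively activated macrophages to at most 68.1 CPM. Other dendritic lists were intermediate or low. The 16 dendritic lineage factors summed to 3607, 3840, 3456 and 3265 CPM, between macrophage (1818 to 2173 CPM) and conventional dendritic nuclei (5723 to 6953 CPM). Of the 16, 5 were highest in mature dendritic nuclei and 0 were above every library of the other classes. Of all genes outside the rule tested below, 21% and 5.51% were so. The 7 conventional dendritic genes summed to 1285, 1338, 1326 and 1136 CPM, well below conventional dendritic nuclei (3041 to 3847 CPM) and close to macrophage nuclei (918 to 1181 CPM). Conventional dendritic nuclei were drawn by these 7 genes, so their higher sum was set in advance. The 10 type 2 genes summed to 83.6, 89.5, 66.7 and 193 CPM, below both conventional dendritic (811 to 1529 CPM) and macrophage nuclei (2216 to 2612 CPM).

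Lymphocyte transcripts were low but present. The 7 T cell genes summed to 150, 253, 61.9 and 35.4 CPM in mature dendritic nuclei, against 5161 to 6359 CPM in T nuclei, and the 6 B cell genes to 171, 160, 54.8 and 46.3 CPM against 5641 to 8473 CPM in B nuclei. Both sums were lower in each library at 24 months than in each at 2 months. The lymphocyte limit of the rule caps 4 of these 13 genes. Scrublet marked 36 nuclei as doublets in all, 2 of them mature dendritic, and since it marked fewer than 0.5% of nuclei in 5 of 6 libraries it cannot be taken to have found the doublets.

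The genes that led mature dendritic nuclei, ranked by their mean log2 ratio to other Ptprc nuclei and outside the rule, were headed by Epsti1, an interferon-inducible gene. Epsti1 was at 7292, 7359, 9001 and 6103 CPM in SAT and at 3877 CPM in VAT replicate 2, with a mean log2 ratio of 3.79. Its conventional dendritic mean was 1203 CPM. The organic anion transporter gene Slco5a1 followed with a ratio of 3.64 (1009, 998, 1316 and 1275 CPM), then the disintegrin gene Adam23 with 3.64 (2189, 2120, 2607 and 2437 CPM) and the class Ib antigen gene H2-M2 with 3.61 (1001, 845, 1362 and 1389 CPM). These levels held to within a factor of 2 across the SAT libraries of both ages.

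Il15ra, the receptor chain that presents interleukin 15 to T and NK cells, was at 1133, 1178, 1064 and 822 CPM, and its ligand Il15 at 965, 970, 886 and 730 CPM, with conventional dendritic means of 266 and 224 CPM. Ccl5 and Plxnc1, a chemokine and a plexin receptor, had log2 ratios of 3.10 and 3.15. Zfp366, a zinc finger factor of dendritic cells, had a ratio of 3.12 and was at 809 CPM in conventional dendritic nuclei, beside 1060, 975, 1331 and 1411 CPM in mature ones. Mreg, a melanosome transport factor, had 3.29, the apolipoprotein L gene Apol7c 3.27, the adaptor Samsn1 3.33 and the ETS repressor Etv3 3.27. Gm16685 (3.56), a long noncoding RNA, was the only one of the 25 leading genes that does not code for protein.

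**Figure D1:**
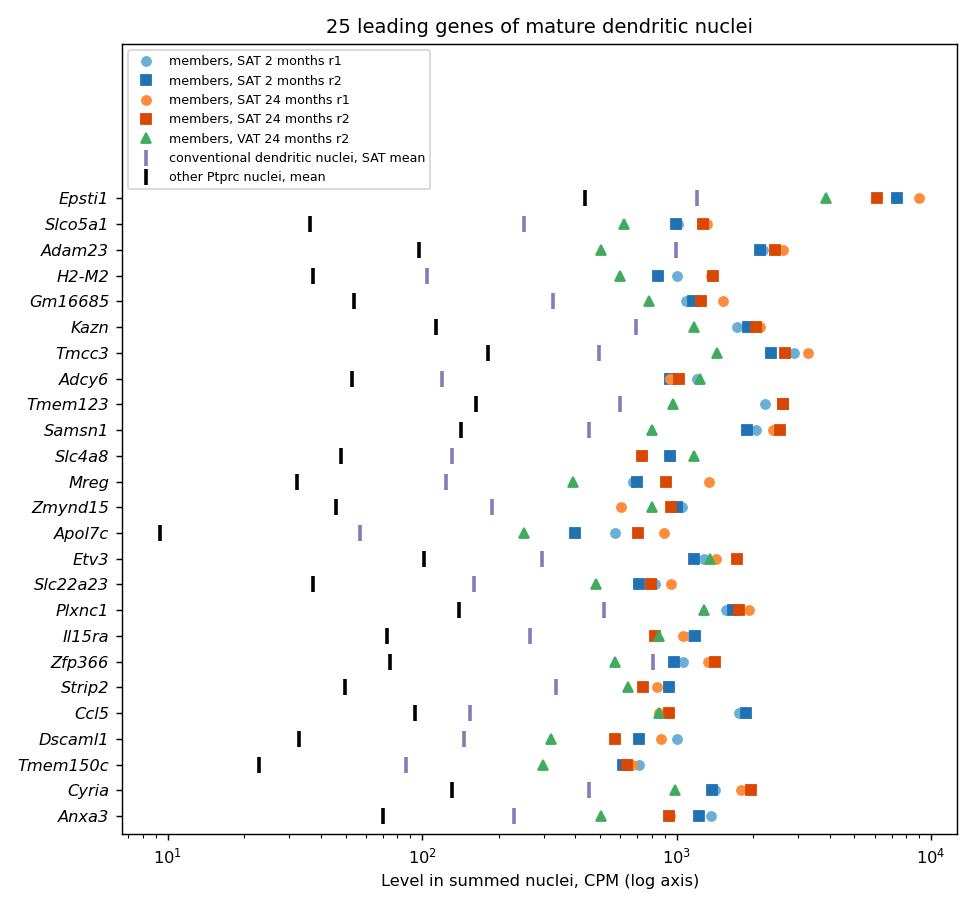
Levels of the 25 leading genes in mature dendritic nuclei, in CPM on a log axis, 1 point per library (r1 and r2 are replicates), with the mean of conventional dendritic nuclei of SAT and of all other Ptprc nuclei as vertical ticks. Every SAT point lies to the right of both ticks, and the 25 nuclei of VAT replicate 2 (triangles) lie to the left of all SAT points for most genes, for example Epsti1 at 3877 CPM.

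Fixed lists gave the same picture by function. Of 25 genes known from mature dendritic cells and outside the rule, 21 were higher in mature dendritic nuclei than in each of the 4 other classes on average, and 19 were above every single library of these classes. Of the 8343 genes outside the rule that were tested below, 21% were highest in mature dendritic nuclei in this way and 5.51% were above every library. Their sum was 19136, 18684, 18451 and 18533 CPM in SAT, against 4466 to 5458 CPM in conventional dendritic nuclei and 1710 to 2524 CPM in macrophage nuclei. The sum in VAT replicate 2 was 11953 CPM. Cd40, the receptor through which T cells license dendritic cells, was at 798, 664, 1121 and 681 CPM against 123 CPM in conventional dendritic nuclei. Cd86, another costimulatory ligand, did not follow: its 192, 171, 97.6 and 112 CPM lay below the 283 CPM of conventional dendritic nuclei.

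Of 19 NF-kB factors and targets outside the rule, 15 were highest in mature dendritic nuclei, and 11 of 19 exceeded every library of the other classes, beside the same 21% and 5.51% of all genes. With Relb of the rule included, the list of 20 genes summed to 11902, 10736, 11524 and 10864 CPM in SAT and to 11150 CPM in VAT replicate 2, against 4157 to 4975 CPM in conventional dendritic nuclei. Birc3, an inhibitor of apoptosis and NF-kB target, was at 2090, 1755, 1945 and 1642 CPM, and Traf1, an adaptor of TNF receptors, at 922, 689, 643 and 645 CPM. The inhibitor Nfkbia was at 1247, 1347, 938 and 1035 CPM against 401 CPM in conventional dendritic nuclei. Nfkb1 was an exception, since its 412, 328, 271 and 362 CPM lay below the conventional dendritic mean of 495 CPM.

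The 250 bases before the start of the canonical transcript were searched on both strands for the kB consensus, the site bound by NF-kB dimers. It occurred in 2 of the 6 marker genes (Relb and Il4i1), in 4 of the 24 leading genes that code for protein (Ccl5, Epsti1, H2-M2 and Slc4a8), and in 7.625% of the 21757 promoters of all coding genes. A match is a run of letters and shows no binding, and its absence says nothing about the factor. The promoters of Relb, the NF-kB factor among the marker genes, and of Ccl5, the leading gene that was lower at 24 months below, are shown with the match in capitals. Both are from GRCm39 and read on the minus strand, Relb at chr7:19363424-19363673 with the match starting 37 bases before the start, and Ccl5 at chr11:83421346-83421595 with the match starting 89 bases before it.
Relb: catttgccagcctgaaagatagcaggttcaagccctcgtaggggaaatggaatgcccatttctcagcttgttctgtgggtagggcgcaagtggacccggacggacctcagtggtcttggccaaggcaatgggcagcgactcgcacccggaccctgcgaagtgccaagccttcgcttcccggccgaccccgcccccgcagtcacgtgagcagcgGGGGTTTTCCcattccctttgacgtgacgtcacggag
Ccl5: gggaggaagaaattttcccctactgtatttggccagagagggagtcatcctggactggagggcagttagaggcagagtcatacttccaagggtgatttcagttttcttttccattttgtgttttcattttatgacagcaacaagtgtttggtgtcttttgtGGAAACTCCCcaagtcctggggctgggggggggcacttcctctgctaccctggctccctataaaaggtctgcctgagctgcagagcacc
The Ccl5 window overlaps the first exon of the noncoding gene Gm73713 on the other strand, and the last 2 bases of the Relb window lie in an exon of another Relb transcript.

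Genes of antigen uptake and presentation were low. None of the 12 MHC class II genes was highest in mature dendritic nuclei, and their sum of 2461, 2333, 1785 and 3012 CPM lay under the lowest library of conventional dendritic (13031 CPM), macrophage (6502 CPM) and B nuclei (10657 CPM). Cd74, the invariant chain, was at 713, 678, 517 and 861 CPM against 4642 CPM in conventional dendritic nuclei, and Ciita, the master activator of class II genes, at 41.8, 41.4, 45.2 and 81.7 CPM against 1191 CPM. Ctss, the protease that cleaves the invariant chain, was not low: its 633, 561, 486 and 686 CPM compare with 592 CPM in conventional dendritic nuclei. The 20 uptake and Toll-like receptors summed to 219, 159, 105 and 275 CPM, against 3320 to 8232 CPM in macrophage nuclei. The 9 genes of conventional type 1 dendritic cells found here summed to 131, 169, 85.7 and 199 CPM against 4235 to 6045 CPM in conventional dendritic nuclei, with Clec9a at no more than 7.54 CPM and Xcr1 at no more than 10.9 CPM in SAT.

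**Figure D2:**
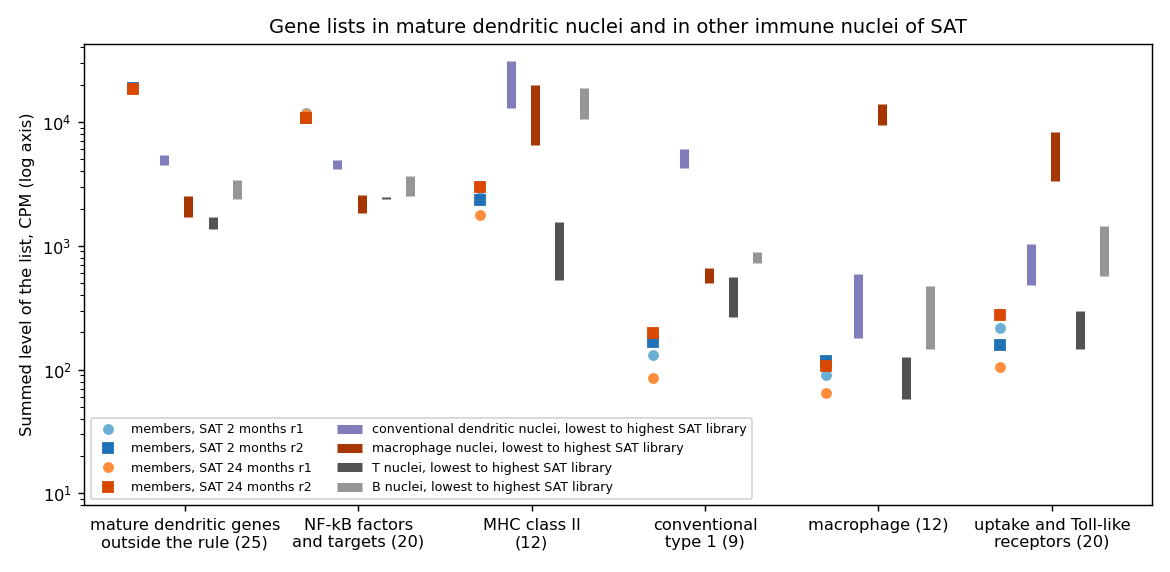
Summed CPM (log axis) of 6 gene lists, with the number of genes in brackets, in mature dendritic nuclei of the 4 SAT libraries (points labelled members) and as the range over SAT libraries in 4 other classes (bars). Points lie above the bars for mature dendritic and NF-kB genes, and below the bars of conventional dendritic nuclei for MHC class II, conventional type 1 and uptake genes.

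Among secreted signals, 15 cytokines summed to 1290, 1331, 1383 and 921 CPM in mature dendritic nuclei, above the highest library of each other class (751 CPM, in macrophage nuclei). Of the 15, 6 were highest in mature dendritic nuclei and 1 was above every library of the other classes, beside 21% and 5.51% of all genes tested. The 13 chemokines, with Ccl22 of the rule included, summed to 3575, 3878, 1969 and 3020 CPM, against 239 to 1029 CPM in conventional dendritic and 1179 to 2441 CPM in macrophage nuclei. Of 12 chemokines outside the rule, Ccl5 (1762, 1876, 855 and 931 CPM), Cxcl16 (846, 1011, 600 and 749 CPM) and Ccl17 (39.9, 42.4, 26.2 and 106 CPM) had enough counts for the test between ages, and Ccl3 and Cxcl10 had no UMI. Cxcl16, a membrane-bound ligand of CXCR6, was at 278 CPM in conventional dendritic and 121 CPM in macrophage nuclei. Il12b, the shared chain of interleukins 12 and 23, was at 17.1, 32.0, 49.99 and 8.17 CPM in SAT. It was at 206 CPM in VAT replicate 2, where it rests on 9 UMIs in 5 of 25 nuclei, against 1.87 CPM in the other nuclei of that library. No chemokine receptor other than Ccr7 was above every library of the other classes, and Ccr2 and Ccr1, which recruit cells from blood, stayed at or below 27.2 CPM in every SAT library.

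The first comparison asked whether mature dendritic nuclei make up a different share of SAT at 2 and at 24 months. They were 3.05% (140 of 4595 nuclei, exact 95% interval 2.57 to 3.59%) and 6.20% (358 of 5776, 5.59 to 6.85%) of all nuclei at 2 months. At 24 months they were 6.06% (151 of 2490, 5.16 to 7.07%) and 2.99% (141 of 4709, 2.53 to 3.52%). The groups overlapped, with means of 4.62 ± 2.23% and 4.53 ± 2.17% (SD, n = 2), and the difference of -0.0932 points had an exact permutation p of 0.667 (two-sided). The difference was as large as 1.48 points in the other direction without SAT 2 months replicate 2, 1.44 points without SAT 24 months replicate 2 and 0.642 points when nuclei with any UMI of the 8 excluding genes were dropped. After thinning to 1000 UMIs it was -0.21 points. The intervals cover counting error only. With 2 against 2 libraries no exact permutation p can fall below 0.333.

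Set against Ptprc nuclei only, the shares separated by age. They were 5.59% of 2503 and 9.08% of 3943 Ptprc nuclei at 2 months, and 17.1% of 882 and 22.8% of 619 at 24 months. Both libraries at 24 months were above both at 2 months, with means of 19.9 ± 4.00% and 7.34 ± 2.47% (SD, n = 2), a difference of 12.6 points and an exact permutation p of 0.333, the smallest this design allows. After thinning to 1000 UMIs the difference was 10.8 points, and over all barcodes under 15% mitochondrial UMIs, shallow ones included, it was 6.08 points. Leaving out each library in turn gave 9.78 to 15.4 points. Mature dendritic nuclei were counted with or without a Ptprc UMI, which 93 of 140, 214 of 358, 77 of 151 and 60 of 141 held, whereas other nuclei needed 1. With the same condition for all, the shares were 3.79%, 5.63%, 9.53% and 11.2%, still without overlap, and the difference was 5.63 points (exact permutation p = 0.333).

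T and B nuclei fell in number while this share rose, and macrophage nuclei (140 and 177, then 49 and 221) had no common direction. T nuclei numbered 1115 and 1815 at 2 months and 368 and 125 at 24 months, and B nuclei 490 and 470 against 87 and 63. Lymph node stroma and follicle genes, listed to look for node tissue in a dissected inguinal depot, summed to 541 and 480 CPM over all nuclei at 2 months and to 199 and 58.5 CPM at 24 months. The list is not independent of B nuclei. It summed to 135 to 806 CPM in B nuclei of SAT and to at most 185 CPM in conventional dendritic, macrophage and T nuclei. Cr2 of this list was at 179, 102, 62.5 and 11.4 CPM over all nuclei of the 4 SAT libraries. The part of these changes in the higher share was not tested. Against conventional dendritic nuclei alone, which is a ratio chosen after its values were seen, there were 1.57 and 2.42 mature nuclei per conventional nucleus at 2 months and 5.59 and 6.41 at 24 months (89 and 148, and 27 and 22 conventional nuclei). These ratios did not overlap and differed by 4.00 (exact permutation p = 0.333), whereas the ratios to macrophage nuclei of 1 and 2.02, and of 3.08 and 0.638, overlapped (p = 1, exact permutation).

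**Figure D3:**
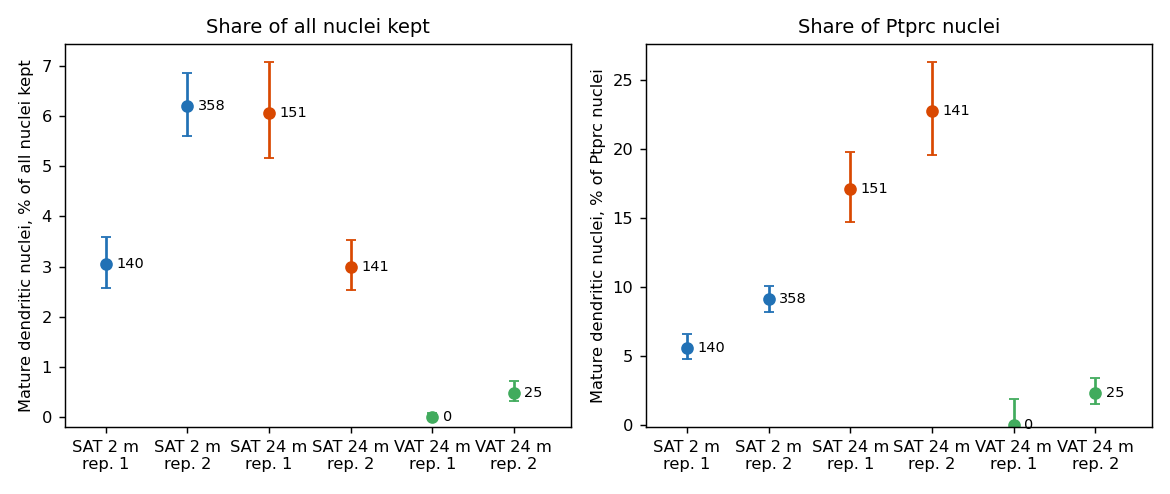
Mature dendritic nuclei in each of the 6 libraries as a percent of all nuclei kept (left) and of Ptprc nuclei (right), with exact 95% intervals for counting error as bars and the number of nuclei beside each point. SAT shares of all nuclei overlap between ages, SAT shares of Ptprc nuclei are at most 9.08% at 2 months and at least 17.1% at 24 months, and both VAT libraries lie under every SAT library.

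In VAT at 24 months these nuclei were rare. VAT replicate 1 had 0 of 4434, for which a count of 0 allows a share of up to 0.0677% by the limit of 3 counts and 0.0832% by the exact 95% interval, and VAT replicate 2 had 25 of 5070 (0.493%, exact 95% interval 0.319 to 0.727%). Both lay below both SAT libraries of the same age, with a difference in means of -4.28 points (0.247 ± 0.349% against 4.53 ± 2.17%, SD, n = 2, exact permutation p = 0.333). Of Ptprc nuclei they were 0 of 199 (a share of up to 1.51% and 1.84% by the same limits) and 2.33% of 1075, again below both SAT libraries, and the difference in means of -18.8 points had the same exact permutation p of 0.333. Over all barcodes under 15% mitochondrial UMIs the differences were -2.25 points of all nuclei and -11.0 points of Ptprc nuclei. Leaving out each library in turn gave -5.82 to -2.75 points of all nuclei. With a Ptprc UMI required of all nuclei the difference of Ptprc nuclei was -9.78 points. That condition made the difference over all nuclei -2.06 points. After thinning to 1000 UMIs the differences were -3.11 points of all nuclei and -16.0 points of Ptprc nuclei. VAT replicate 1 held few immune nuclei other than macrophages, with 11 conventional dendritic, 246 macrophage, 9 T and 10 B nuclei, and VAT replicate 2 held 64, 147, 366 and 195. The lymph node list summed to 61.8 and 162 CPM over all nuclei of VAT and to 199 and 58.5 CPM in SAT at 24 months, so the depots overlapped in it. SAT at 24 months held 368 and 125 T nuclei and 87 and 63 B nuclei, and the depots overlapped in these numbers too. The part of lymphoid content in the lower share was not tested.

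The 25 nuclei of VAT replicate 2 are the only ones of that depot and allow no test of gene levels between depots. Of the marker genes of the rule, Cacnb3 (2570 CPM) and Relb (1996 CPM) lay within the range of the SAT libraries and Il4i1 (1308 CPM) above it. Fscn1 was at 1698 CPM, below the 2228 to 3742 CPM of SAT, Ccr7 at 642 CPM, below 752 to 1248 CPM, and Ccl22 at 91.8 CPM, below 471 to 1212 CPM. Aldh1a2, which makes retinoic acid, was at 367 CPM (16 UMIs in 7 of 25 nuclei) against 15.1 to 64.6 CPM in SAT, and the other nuclei of that library stood at 246 CPM. With 43586 UMIs in all, 1 UMI is worth 22.9 CPM in this library.

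The second comparison asked which genes change between 2 and 24 months within mature dendritic nuclei of SAT. UMIs were summed per library and tested with edgeR's quasi-likelihood test over 8352 genes, adjusted by the Benjamini-Hochberg method, in a fit that also held VAT replicate 2. At an adjusted p under 0.05, 99 genes (1.19%) were called, with 51 up (0.611%) and 48 down (0.575%) in the older mice. The 2 ages did not overlap for 93 of the 99, against 41.4% of all genes tested. With 2 libraries a group the p-values rest mostly on a spread pooled over genes, and they measure only the spread between these libraries. With the 4 SAT libraries alone 39 genes were called, 22 higher and 17 lower. DESeq2 called 7 genes, 6 higher and 1 lower, and the count was 17 without SAT 2 months replicate 2, 41 without SAT 2 months replicate 1, 164 without SAT 24 months replicate 1 and 194 without SAT 24 months replicate 2. With 1 library left out, the lone library of that age is assumed to vary like the other groups, so these calls, here and below, carry less than the main ones.

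The lists were read against the 1.19% of all genes called. All 25 mature dendritic genes outside the rule were tested, and 1 was higher (Apol7c) and 1 lower (Ccl5), with a median log2 change of -0.01, beside 0.0035 over all genes. Of 19 NF-kB genes, 19 cytoskeleton and migration genes, 15 costimulation and checkpoint genes, 11 MHC class II genes and 16 survival genes tested, none was called, with medians of 0.04, 0.22, -0.20, 0.12 and -0.09. At that background share no call is what a list of such a size would give. The costimulatory ligand Icosl, at 796, 724, 478 and 452 CPM, had a log2 change of -0.54 with an adjusted p of 0.32 (edgeR's quasi-likelihood test). Of 14 dendritic lineage factors tested Nr4a3 was higher, of 8 cytokines Tnf was higher and Ebi3 lower, of 22 cytokine receptors and signalling genes Il7r was lower, of 9 interferon-stimulated genes Trim30a was lower, and of 5 uptake receptors Cd36 was higher. The calls of the last 3 did not hold with every library left out. Il7r, the interleukin 7 receptor, was at 384, 416, 229 and 155 CPM and was called only when SAT 24 months replicate 1 was the library left out (adjusted p of 0.37, 0.87 and 0.20 without SAT 2 months replicate 1, replicate 2 and SAT 24 months replicate 2, edgeR's quasi-likelihood test). Its log2 change was -0.89, and -0.94, -0.84, -1.24 and -0.61 with each library left out in the order of the levels, and its ages did not overlap. Trim30a, at 283, 531, 124 and 253 CPM, was not called without SAT 2 months replicate 2 (0.998) or SAT 24 months replicate 1 (0.25), and Cd36, a fatty acid transporter at 36.1, 6.59, 26.2 and 139 CPM whose ages overlapped, not without replicate 2 of either age (0.87 and 0.76).

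Many called genes were higher in other nuclei than in mature dendritic ones. Of the 48 lower genes, 36 lay below the level of all other nuclei at 2 months. The 10 with the largest fall and no overlap were Cd5, Cd27, Lef1, Rac2, Trac, Trbc2, Cyp2e1, Thy1, Fam13a and Gpx3, of which Cd5, Cd27, Lef1, Trac, Trbc2 and Thy1 are T cell genes. Trbc2, a T cell receptor chain, was at 68.4 and 72.5 CPM at 2 months and 9.52 and 5.45 CPM at 24 months, while the other nuclei stood at 391 and 57.4 CPM. Gpx3, a secreted glutathione peroxidase, was at 101, 90.4, 2.38 and 24.5 CPM against 2008 and 409 CPM in other nuclei at 2 and 24 months. Of the 51 higher genes, 17 lay below the level of other nuclei at 24 months, among them Nnat, Xkr4 and Zfpm2. The share of free or neighbouring RNA in these calls was not tested. When nuclei with any UMI of the 8 excluding genes were dropped, 23 of the 99 genes were called, 16 higher and 7 lower.

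Attention is therefore given to the 30 called genes that were at least 2 times as high in mature dendritic nuclei as in all other nuclei in the age group where they were higher, a choice made after the data were seen. They comprised 25 genes higher and 5 lower at 24 months, a balance that the filter itself can set, since it was read in the age group where a gene was higher. Sgcz, the gene of zeta-sarcoglycan on chromosome 8 (GRCm39, 37989452 to 39128662, minus strand), had the smallest adjusted p of these 30. It was at 409 and 301 CPM at 2 months and at 1226 and 1285 CPM at 24 months, and the 2 ages lay far apart. The log2 change was 1.99 (SE 0.22, adjusted p = 5.12e-11, edgeR's quasi-likelihood test), and the gene was called in all 13 settings tried.

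Sgcz was uneven over nuclei. It was seen in 14 of 140 and 46 of 358 nuclei at 2 months and in 30 of 151 and 33 of 141 at 24 months. The highest nucleus held 42, 40, 128 and 72 UMIs in the same order, which was 12.5% to 24.9% of the library's Sgcz UMIs. In other nuclei Sgcz stood at 34.5 CPM at 2 months and 49.5 CPM at 24 months, and in the 25 nuclei of VAT replicate 2 it had 0 UMIs, where 3 UMIs would be 68.8 CPM.

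Akt1s1, which encodes a proline-rich subunit of mTOR complex 1, was also called in every setting. It was at 38.0 and 38.6 CPM at 2 months and at 138 and 207 CPM at 24 months, with a log2 change of 2.31 (SE 0.32). The other nuclei stayed at 37.4 and 33.6 CPM. Akt1s1 overlaps Tbc1d17 on the other strand, and whether counting used strand is not given in the sources used here. The same holds among genes named here for Gpx3 (with Tnip1), Nnat (Blcap) and Cd27 (Vamp1), and S100a4 overlaps Gm42674 on its own strand, so the reads of each pair may not be told apart. Tcaf2, a regulator of TRP channels, was at 39.9, 6.59, 121 and 139 CPM (log2 change 2.88), and Tenm2, a teneurin adhesion protein, at 13.3, 21.7, 52.4 and 142 CPM (2.52). Tcaf2 was not called without SAT 2 months replicate 2 (adjusted p = 0.091, edgeR's quasi-likelihood test) and Tenm2 not without SAT 24 months replicate 2 (0.085).

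Map4k4, Mreg, Apol7c, Cd44 and S100a4 had smaller rises. Map4k4, a kinase of stress signalling, was at 481, 417, 821 and 733 CPM (log2 change 0.96, SE 0.22), Mreg at 673, 696, 1345 and 910 CPM (0.89, SE 0.22) and Apol7c at 574, 400, 893 and 703 CPM (0.89, SE 0.22). Cd44, an adhesion receptor for hyaluronan, was at 333, 308, 412 and 681 CPM (0.92, SE 0.23), and S100a4, a calcium-binding protein of motile cells, at 131, 113, 198 and 381 CPM (1.40, SE 0.26). Other Ptprc nuclei averaged 357 and 262 CPM of Map4k4 at 2 and 24 months, 26.7 and 41.8 CPM of Mreg and 9.80 and 12.1 CPM of Apol7c. They averaged 192 and 458 CPM of Cd44 and 35.7 and 135 CPM of S100a4. The changes of Cd44 (difference -0.43) and S100a4 (-0.68) were not called different from theirs (adjusted p = 0.69 and 0.49, edgeR's quasi-likelihood test). In each of these 5 genes both libraries at 24 months lay above both at 2 months in mature dendritic nuclei. None was called without SAT 2 months replicate 2, where edgeR's quasi-likelihood test gave adjusted p-values of 0.87, 0.81, 0.998, 0.87 and 0.31 in the order named, while the log2 changes were 0.84, 0.90, 0.63, 0.85 and 1.27. Without SAT 2 months replicate 1 only S100a4 of the 5 was called. Without SAT 24 months replicate 1 Mreg was not called (0.15), and without SAT 24 months replicate 2 Cd44 (0.17) and S100a4 (0.051) were not.

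Tnf and Nr4a3, both early genes of activated immune cells, depended on single libraries. Tnf was at 57.0, 23.6, 205 and 27.2 CPM, and 68 of the 86 UMIs behind the value of 205 CPM came from 1 nucleus. Its ages overlapped, and its log2 change of 1.84 (adjusted p = 0.0035, edgeR's quasi-likelihood test) turned to -0.32 without SAT 24 months replicate 1, and it was not called without SAT 2 months replicate 2 (0.87). Nr4a3, a nuclear receptor induced on dendritic cell maturation, was at 32.3, 19.8, 114 and 38.1 CPM with a log2 change of 1.80, which was 0.75 and not called without the same library (adjusted p = 0.67, edgeR's quasi-likelihood test). It was not called without SAT 2 months replicate 2 either (0.80).

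Among the 5 lower genes of these 30, Ccl5, which attracts T cells and monocytes, stood at the highest level. It was at 1762 and 1876 CPM at 2 months and at 855 and 931 CPM at 24 months, with no overlap. The fall of 0.87 on the log2 scale (SE 0.21) had an adjusted p of 0.015 in edgeR's quasi-likelihood test and 0.032 in DESeq2. Leaving out SAT 2 months replicate 1 or replicate 2 gave log2 changes of -0.91 and -0.83 with adjusted p-values of 0.42 and 0.81 by the same edgeR's quasi-likelihood test, so the size stayed and the call did not. Without nuclei that held an UMI of the excluding genes the log2 change was -0.78 (adjusted p = 0.19, edgeR's quasi-likelihood test). In other nuclei Ccl5 was at 77.4 CPM at 2 months and 27.8 CPM at 24 months, and it stood at 849 CPM in mature dendritic nuclei of VAT replicate 2.

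Csf1, Ebi3 and Crispld2 fell as well. Csf1, the growth factor of macrophages, was at 144 and 207 CPM at 2 months and 66.7 and 46.3 CPM at 24 months (log2 change -1.48, SE 0.31). It was not called without SAT 2 months replicate 2, where the log2 change was -1.19. Ebi3, a chain of interleukins 27 and 35, was at 114, 103, 40.5 and 32.7 CPM (-1.38, SE 0.37) and was called only when SAT 24 months replicate 1 was the library left out. Its log2 change was -1.31, -1.47, -1.58 and -1.20 with each library left out in the order of the levels. Crispld2, a secreted protein that binds endotoxin, was at 85.5, 97.0, 16.7 and 10.9 CPM (-2.53, SE 0.46) and was called whichever SAT library was left out. Gm42826, a gene of no known function, had a log2 change of -1.78 and was called only when SAT 24 months replicate 1 was the library left out.

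**Figure D4:**
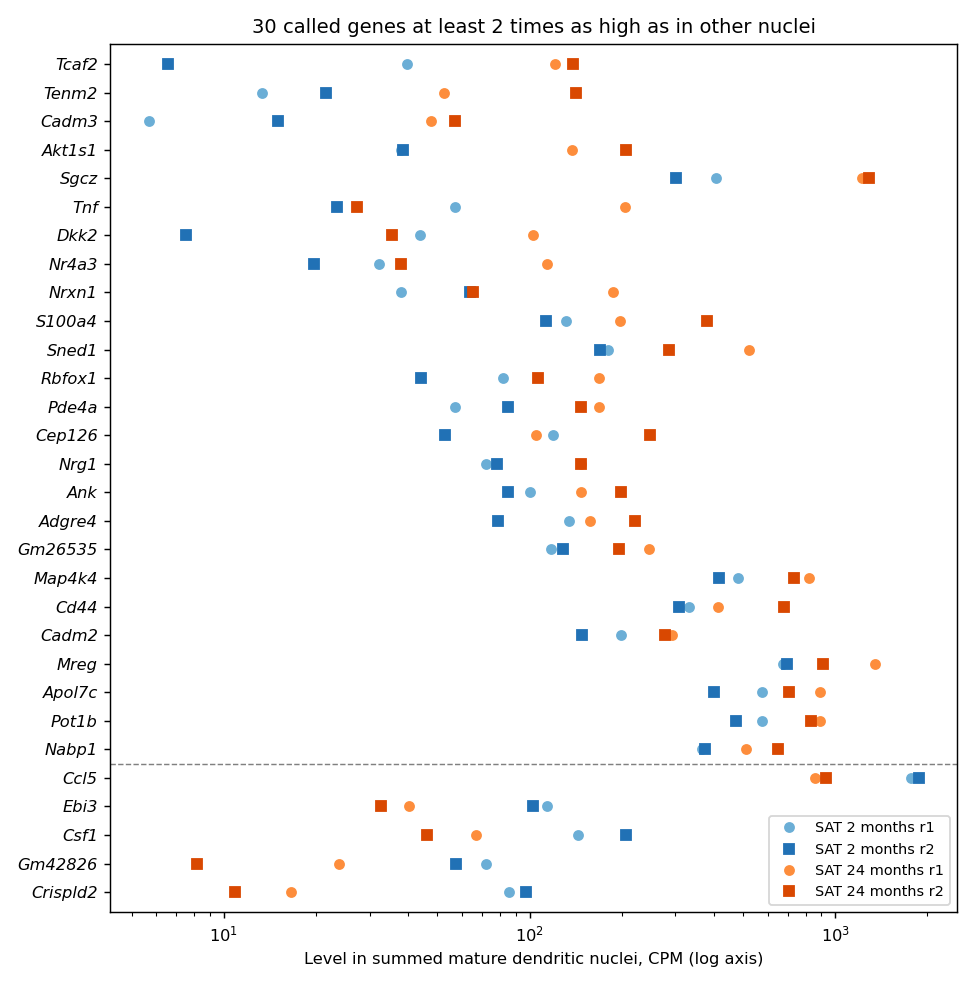
Levels of the 30 called genes that were at least 2 times as high as in other nuclei, in summed mature dendritic nuclei of each SAT library, in CPM on a log axis, with genes higher at 24 months above the dashed line and genes lower below it. Sgcz lies at 301 to 409 CPM at 2 months and 1226 to 1285 CPM at 24 months, and the 2 ages overlap for Tnf, Dkk2 and Cep126.

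The third comparison asked whether the change with age differs between mature dendritic and other Ptprc nuclei of the same SAT libraries, by the interaction term of edgeR's quasi-likelihood test with library as a term. Of 12075 genes, 68 were called (0.563%), 17 with a higher and 51 with a lower change in mature dendritic nuclei. The 68 include Ccr7, whose level in mature dendritic nuclei the rule used. Dclk1, a doublecortin-like kinase, was at 28.5 and 41.4 CPM at 2 months and 281 and 212 CPM at 24 months in mature dendritic nuclei, and at 24.2, 45.9, 32.5 and 67.5 CPM in other Ptprc nuclei. The 2 ages overlapped in the other Ptprc nuclei but not in the mature dendritic ones. Over all other nuclei Dclk1 was at 79.0 CPM at 2 months and 147 CPM at 24 months, and it was not among the 30 genes at least 2 times as high as there. The change differed by 2.48 on the log2 scale for Dclk1 (adjusted p = 0.0051), by 2.33 for Akt1s1 (0.0051) and by 1.33 for Map4k4 (0.020), by edgeR's quasi-likelihood test. Without SAT 2 months replicate 2 none of these 3 was called (0.14, 0.10 and 0.64), while the differences were 2.22, 2.40 and 1.20, and without SAT 2 months replicate 1 Akt1s1 (0.084) and Map4k4 (0.23) were not. The change in Sgcz (difference 0.29, adjusted p = 0.84) was not called different by edgeR's quasi-likelihood test, and other Ptprc nuclei were at 28.9 and 89.8 CPM of Sgcz on average at 2 and 24 months. That in Ccl5 (-0.58, adjusted p = 0.54 by edgeR's quasi-likelihood test) was not called different either, with means of 102 and 78.9 CPM of Ccl5 in other Ptprc nuclei. The other Ptprc nuclei held fewer T and B nuclei at 24 months, so their averages changed in makeup, and the part of that in these differences was not tested. Without library as a term no gene was called by edgeR, with 912 at an unadjusted p under 0.05, and the count ran from 18 without SAT 2 months replicate 2 and 23 without SAT 2 months replicate 1 to 114 and 413 without SAT 24 months replicate 2 and replicate 1.

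Mature dendritic nuclei varied in Ccl22, and nuclei with at least 3 Ccl22 UMIs were set beside those with none, a split made after its values were seen and given without a test. There were 37 and 65, 87 and 181, 22 and 100, and 38 and 65 such nuclei with and without Ccl22 in the 4 SAT libraries. Cd40 was at 1787, 1415, 3941 and 1361 CPM with Ccl22 and at 225, 217, 396 and 161 CPM without. Every value with Ccl22 lay above every value without, and the share of all genes with such a gap is not given here. Among nuclei of 2000 to 4000 UMIs, 341 of 2203 genes were higher with Ccl22 in all 4 libraries. The costimulatory ligand Cd86 was at 466, 321, 299 and 212 CPM with Ccl22 and at 96.6, 99.8, 67.9 and 28.0 CPM without, and Ccl17, which shares the receptor CCR4 with Ccl22, at 98.5, 111, 117 and 261 CPM against 23.0, 17.4, 3.77 and 42.0 CPM. The survival gene Bcl2l1 was at 499, 386, 468 and 155 CPM against 59.8, 86.8, 75.4 and 21.0 CPM.

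Other genes were lower where Ccl22 was present. Mx1, an interferon-induced antiviral gene, was at 420, 284, 312 and 676 CPM with Ccl22 and at 883, 733, 709 and 1049 CPM without, and Dpp4, a surface peptidase, at 145, 95.8, 156 and 40.8 CPM against 285, 232, 192 and 147 CPM. Within each library both were lower in the nuclei with Ccl22. Such a common direction was not rare: among nuclei of 2000 to 4000 UMIs, 343 of 2203 genes were lower in all 4 libraries. Ccl5 did not follow either direction, with a mean log2 ratio of -0.19. Nuclei with Ccl22 were deeper (median 2710.5 to 3765 UMIs against 1867 to 2941). Among nuclei of 2000 to 4000 UMIs the means were 1616 and 290 CPM for Cd40, 237 and 58.3 CPM for Cd86, and 417 and 799 CPM for Mx1, with and without Ccl22. These means weight libraries equally, and the matched nuclei with Ccl22 numbered 22, 47, 5 and 19.

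**Figure D5:**
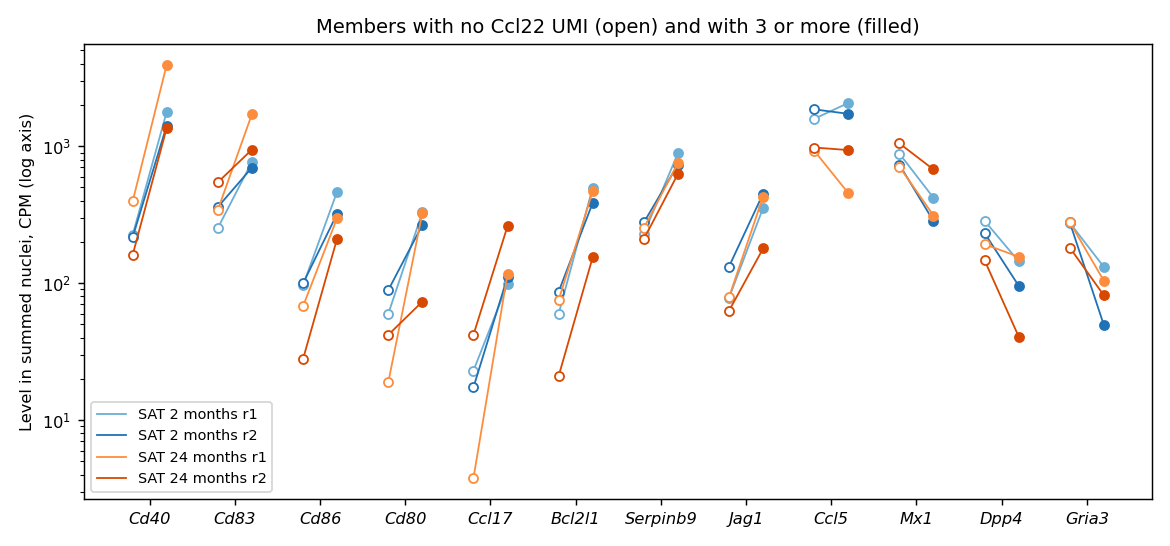
Levels of 12 genes in mature dendritic nuclei with no Ccl22 UMI (open) and with at least 3 (filled), in CPM on a log axis, 1 point per SAT library. Filled points lie higher than open ones for Cd40 (1361 to 3941 against 161 to 396 CPM) and lower for Mx1 and Gria3, while Ccl5 shows no common direction.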

How the data were processed

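Nuclei from 6 libraries were captured with a Singleron GEXSCOPE chip and the reads were aligned by the authors with Celescope to GRCm39. The version and annotation release are not given in the sources used here. The deposited values are raw UMI counts per gene and nucleus for 50859 barcodes. A barcode was kept if it had more than 500 genes and 1000 UMIs and less than 15% of UMIs from mitochondrial genes. CPM is a count divided by the total of its library sum and scaled to the same total in every library. Groups came from the labels, which carry a single date and hence no batch to compare. Libraries shared at most 0.769% of the barcodes of the smaller one. Ambient RNA was not removed, and doublets were sought with Scrublet but kept in.

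The nuclei and gene lists were chosen with earlier results of these data known. Shares were compared by an exact permutation test (two-sided). Counts of mature dendritic nuclei were summed per library and tested with edgeR (TMM scaling, quasi-likelihood test, Benjamini-Hochberg adjustment) over the 4 SAT libraries and VAT replicate 2, with at least 20 nuclei per library. VAT replicate 1 had no such nucleus and was not in the fit. The interaction used the 4 SAT libraries with library as a term. Alternatives were DESeq2, other scaling, filters, marker limits, a replicate block, and each library left out, and, added after seeing the data, a Ptprc UMI required of all Ptprc nuclei. On simulated data the age test recovered 82.2% of genes changed 4-fold and 83.3% of those changed 8-fold over 7849 genes, and the interaction test 48.5% and 66.3% over 11684 genes.

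Genes named were the 25 leading genes outside the rule (mean CPM of at least 100, ratio with 50 CPM added), per direction the 10 called genes of largest change whose ages did not overlap, the 5 interaction genes of smallest adjusted p outside the rule, and called genes of each list or else up to 4 examples of highest mean CPM. The 30 genes at least 2 times as high as in other nuclei, the ratios to other classes, Cd86, Nfkb1, Traf1, Ciita, Ctss, Clec9a, Xcr1, Ccr1, Ccr2, Aldh1a2, Il12b and the Ccl22 split were chosen after their values were seen. Of 56980 genes, 98.7% had an entry in GENCODE M39, which gave positions. Python 3.11.15 (scanpy 1.11.5, scipy 1.17.1), R 4.3.3, edgeR 4.0.16 and DESeq2 1.42.0 were used.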

Additional observations from a re-analysis of the deposited data

Results flagged for a closer look

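The 5 genes outside the rule with the smallest adjusted p for a difference between the age change in mature dendritic nuclei and that in other Ptprc nuclei had a higher mean at 24 months in the other nuclei and a lower one in the mature dendritic nuclei. They were picked out because the difference itself passed the interaction test of edgeR's quasi-likelihood method. That test is on the difference, and the lower means in mature dendritic nuclei are a description and no called fall. Il23r, the interleukin 23 receptor, averaged 61.5 CPM at 2 months and 56.1 CPM at 24 months in mature dendritic nuclei, and 62.9 and 416 CPM in other Ptprc nuclei, a difference of -2.77 on the log2 scale. Eml6 went from 432 to 351 CPM against 54.4 to 190 CPM (-2.02), and Marchf3 from 52.9 to 29.3 CPM against 123 to 450 CPM (-2.64). Adgre1, which encodes the macrophage antigen F4/80, averaged 34.1 and 24.8 CPM against 22.6 and 177 CPM (-3.21), and Trf, transferrin, 67.7 and 25.2 CPM against 70.0 and 169 CPM (-2.65). For Trf the ages overlapped in other Ptprc nuclei (81.0, 59.0, 62.7 and 276 CPM), and SAT 24 months replicate 2 alone was high. Without SAT 2 months replicate 2 Marchf3 was not called (adjusted p = 0.078, edgeR's quasi-likelihood test), and without SAT 24 months replicate 2 Adgre1 was not (0.11). None of the 5 was called without library as a term, where the differences were -2.78, -2.02, -2.68, -3.31 and -2.63 in the order named. T nuclei fell in number from 1115 and 1815 to 368 and 125 between the ages while macrophage nuclei were 140, 177, 49 and 221, and the part of this makeup in the differences was not tested.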

How the results depend on the processing

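The share of all nuclei in SAT had no stable direction with age: -1.67 to 1.48 points with 1 library left out, and 0.642 when nuclei with any UMI of the 8 excluding genes were dropped, a setting chosen after seeing the data. The other shares kept their direction in every setting, with 9.78 to 15.4 (Ptprc nuclei, age), -5.82 to -2.75 (all nuclei, VAT) and -21.6 to -16.0 points (Ptprc nuclei, VAT) with 1 library left out. The number of genes called with age was 99, and 7 with DESeq2 (adjusted p NA for 6477 of 8352 genes), 39 with the 4 SAT libraries alone, 56 with a marker sum of at least 6, 23 without nuclei holding excluding UMIs (chosen after seeing the data), and 17 to 194 with 1 library left out, where the lone library of an age is assumed to vary like the other groups. The 30 genes at least 2 times as high as in other nuclei are a subset of the 99 and no separate test. The replicate block gave 8 calls, but numbers shared between ages did not pair the libraries (correlation of deviations 0.044). Of the interaction genes, 104 were called without a filter, 0 without library as a term and 18 to 413 with 1 library left out. Tnf turned to -0.32 without SAT 24 months replicate 1 and reached 2.68 without SAT 24 months replicate 2. The cause of these moves was not tested. Library-size scaling put the median gene at -0.17 on the log2 scale, against 0.0035 with TMM.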

Other observations

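Gm47283, a noncoding gene annotated on chromosome Y (90796007 to 90833677), was among the genes called higher at 24 months (0, 38.6, 400 and 177 CPM, log2 change 3.76). The mice were female, and where the reads of this gene arise was not tested. Over all nuclei Gm47283 stood higher in the same libraries, and 4 other genes of chromosome Y together had 355 UMIs over all nuclei and 10 in mature dendritic ones.

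In the 25 mature dendritic nuclei of VAT replicate 2 single nuclei weighed heavily: 8 of 9 Mki67 UMIs and all 7 Klk1 UMIs came from 1 nucleus each.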
